A study of Mus musculus with 12 samples.

Results

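The 10 genes described here are the p53 gene and genes of its feedback and cell cycle arrest response: Trp53, its negative regulators Mdm2, Mdm4, Ppm1d and Ccng1, and the arrest genes Cdkn1a, Btg2, Plk2, Trp53inp1 and Zmat3. They were found by their symbols in the deposited table, which held 10 of 10 among 55415 entries. All 10 were among the 13668 genes tested. Bulk RNA sequencing was done on tumours of CT26, a mouse colon carcinoma line of BALB/c origin, grown in mice. The 12 libraries formed 4 groups of 3. Combination tumours came from mice given Complex 1 and radiation, Radiation tumours from mice given radiation, Complex 1 tumours from mice given Complex 1, and Control tumours from untreated mice. All groups shared the CT26 line, with no allele or other agent named beyond a wild-type label. Complex 1 is named in the title of the series as a platinum compound that X-rays activate. The sources used here state no dose, time, host strain or age, nor whether a sampled tumour lay in the irradiated field. Since no label says that each library is a separate mouse, p-values below reflect the scatter of these samples only, which may be technical.

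The p53 protein is a transcription factor that cells hold at a low level by constant breakdown. MDM2 attaches ubiquitin to it, and MDM4, a relative of MDM2, binds its activation domain. DNA damage signals release p53 from both, mainly by acting on the proteins, and p53 then switches on genes that stop the cell cycle. It also switches on genes of its own inhibitors, which closes a negative feedback loop.

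The letters of a p53 half-site, the 10-base unit that each pair of p53 subunits contacts, were searched in RefSeq promoter windows (GRCm38.p6, from 250 bases before to 50 after a start). The unit reads alike on both strands. Of the 10 genes, 8 had entries, with 10 windows. A half-site with no mismatch was in 5 of these 10 windows, of 5 genes, against 8.36% of all 32851 windows. The 5 genes include Trp53 and Ppm1d, and the windows of Mdm4, Btg2 and Plk2 held 0. Ccng1 and Cdkn1a are shown in full before the start because each held a pair of half-sites. Cdkn1a has 2 windows, with starts 2790 bases apart. In the window printed here the pair lies 12 bases apart, from 73 bases before its start, with no mismatch. Such a pair (2 half-sites, at most 13 bases apart) was in 0.0731% of all windows. The other Cdkn1a window held 0 half-sites with no mismatch. In Ccng1 the pair is adjacent, from 195 bases before the start, with at most 1 mismatch, as in 1.09% of windows. The other 3 are shown as the half-site with 10 bases on each side. Capitals mark the half-sites of the pair with the fewest mismatches, or the half-site with no mismatch. In Cdkn1a the 10 bases right after the last capitals also form a half-site, with 1 mismatch, and are left in lower case. Each sequence runs 5′ to 3′ on the strand of its gene.
Ccng1, chr11:40755287-40755536, minus strand: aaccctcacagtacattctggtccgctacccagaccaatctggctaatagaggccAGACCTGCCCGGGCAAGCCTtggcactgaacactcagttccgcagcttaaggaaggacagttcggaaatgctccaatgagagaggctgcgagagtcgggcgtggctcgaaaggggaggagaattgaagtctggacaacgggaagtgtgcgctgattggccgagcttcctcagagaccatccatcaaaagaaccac
Cdkn1a, chr17:29090729-29090978, plus strand: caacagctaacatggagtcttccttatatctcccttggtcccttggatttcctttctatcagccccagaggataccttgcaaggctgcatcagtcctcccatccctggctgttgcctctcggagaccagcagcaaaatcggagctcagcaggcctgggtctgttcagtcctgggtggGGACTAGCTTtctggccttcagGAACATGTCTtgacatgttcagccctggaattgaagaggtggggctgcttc
Mdm2, chr10:117710925-117710954, minus strand: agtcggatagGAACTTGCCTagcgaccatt
Trp53, chr11:69580274-69580303, plus strand: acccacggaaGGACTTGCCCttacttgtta
Ppm1d, chr11:85311112-85311141, plus strand: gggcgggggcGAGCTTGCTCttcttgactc
A match is a run of letters in a window and not a measured binding site.

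Libraries held 15.6 to 19.1 M counts (M, mega). Levels are FPKM, counts per kilobase of exons and per mega count of the library, and a count of at least 133 stood behind every value of the 10 genes. Changes are log2 fold changes with their 95% interval from edgeR's quasi-likelihood test on the counts, with p-values adjusted by Benjamini-Hochberg over all 13668 genes and a threshold of 0.05. Of the epithelial markers, Krt20 had 66.6 to 148 FPKM and Krt18 2.81 to 7.72, while Krt8, Krt19, Epcam, Cdh1, Cdx2 and Vil1 had at most 1.05, so most markers of a gut epithelium were at or near 0. Control replicate 2 had 0.02 FPKM of Xist and 28 counts of Y-linked genes, against 9.20 to 14.2 FPKM and at most 1 count in the other 11 libraries. T cell markers summed to 26.2 FPKM in Complex 1 replicate 3 and to 10.6 and 12.3 in the other Complex 1 libraries, and to 5.35 in Radiation replicate 2 against 24.2 and 23.4 in the other Radiation libraries. Values without each library are given where they change a result.

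**Figure D1:**
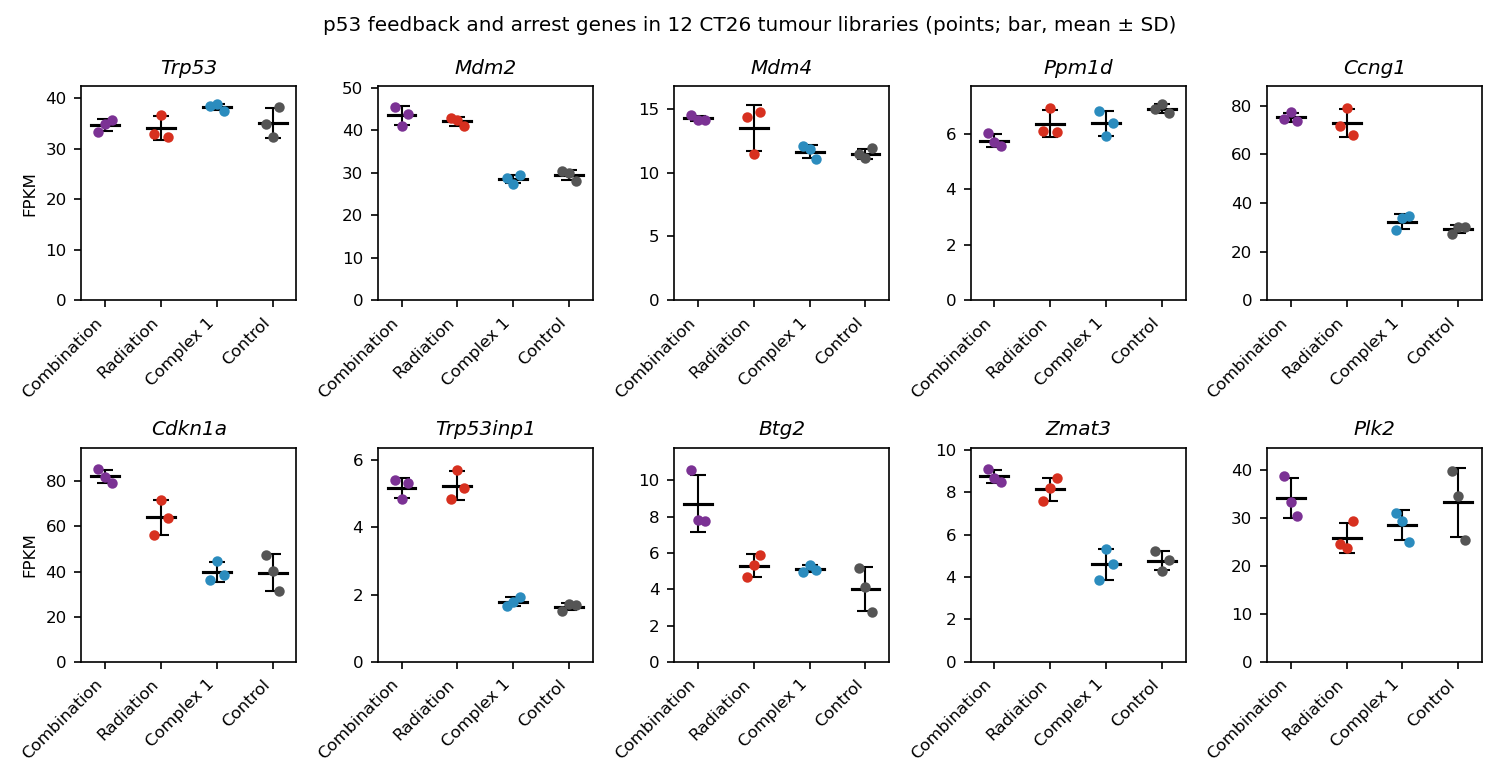
FPKM (y axis, from 0) of each of the 10 genes in the Combination, Radiation, Complex 1 and Control libraries; points are libraries, bars the mean ± SD of 3. The Combination and Radiation points of Ccng1 (67.9 to 78.9 FPKM) and Trp53inp1 (4.84 to 5.69 FPKM) lie above all Complex 1 and Control points, while those of Trp53 (32.4 to 36.8 FPKM) lie among or below them.

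In irradiated tumours transcripts of 3 of the 4 inhibitors (Mdm2, Mdm4 and Ccng1) and 4 of the 5 arrest genes (Cdkn1a, Btg2, Trp53inp1 and Zmat3) rose, while that of p53 itself did not pass. Over both levels of Complex 1, so with 6 libraries against 6, 7 of the 10 genes rose and 0 fell. Of all tested genes, 13.3% rose and 13.2% fell in this comparison. The median log2 change of the 10 was 0.55, against -0.005 over all tested genes. The 10 genes and the lists below were chosen with earlier results of these data known. Shares and medians over all tested genes are therefore given as description only. Trp53inp1 (1.58), Ccng1 (1.24), Cdkn1a (0.85), Zmat3 (0.83), Btg2 (0.56), Mdm2 (0.54) and Mdm4 (0.24) rose, in that order of size. Of these, Mdm4 and Btg2 did not pass in Radiation against Control (adjusted p = 0.125 and 0.227). Trp53, Ppm1d and Plk2 had -0.12, -0.16 and -0.07 and did not pass, although 9 of the 10, all but Plk2, had an unadjusted p under 0.05. Trp53inp1 and Ccng1 had the smallest adjusted p-values of the 10, 6.9e-08 each. In these bulk samples, fewer cells of a type and less RNA per cell cannot be told apart.

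The sums of macrophage markers moved with radiation as well. The 8 markers, with Lyz2, C1qa and Adgre1 among them, summed to 2076 to 2202 FPKM in Combination, 2064 to 2242 in Radiation, 1373 to 1521 in Complex 1 and 981 to 1169 in Control tumours. Of the 8, 6 rose over both levels of Complex 1, against 13.3% of all tested genes. Their part in the changes of the p53 genes was not tested.

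Trp53 encodes p53 (ENSMUSG00000059552, chromosome 11, 69471185 to 69482699, plus strand; gene coordinates are in mm39 throughout, as deposited). It had 33.4, 35.0 and 35.7 FPKM in Combination, 33.0, 36.8 and 32.4 in Radiation, 38.5, 38.8 and 37.5 in Complex 1, and 35.0, 32.3 and 38.2 in Control tumours (replicates 1 to 3 here and below). The Radiation and Control libraries overlapped, and the Combination libraries all lay below the Complex 1 libraries. Radiation against Control gave -0.07 (-0.22 to 0.08, adjusted p = 0.537), and Combination against Complex 1 gave -0.16 (-0.31 to -0.01, adjusted p = 0.159). Over both levels of Complex 1 the change of -0.12 (-0.22 to -0.01) had an adjusted p of 0.094. That became 0.047 without Control replicate 2 and 0.041 without Radiation replicate 2, at -0.14 each. Of the 31-base sequences of Trp53, 10.2% also occur elsewhere, mainly in the pseudogene Trp53-ps, which was counted at 0.41 to 2.02 FPKM.

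Mdm2 encodes the ubiquitin ligase that marks p53 for breakdown (ENSMUSG00000020184, chromosome 10, 117524780 to 117546663, minus strand). It had 45.5, 41.0 and 43.8 FPKM in Combination, 42.9, 42.4 and 41.0 in Radiation, 28.8, 27.4 and 29.4 in Complex 1, and 30.5, 29.9 and 28.1 in Control tumours. Every irradiated library lay above every library without radiation. Mdm2 rose by 0.48 (0.35 to 0.62) in Radiation against Control, with an adjusted p of 0.001, and by 0.59 (0.45 to 0.72) in Combination against Complex 1, with 0.0005. Of the genes that rose over both levels of Complex 1, Mdm2 had the narrowest interval, 0.44 to 0.63.

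Mdm4 encodes the relative of MDM2 that holds p53 inactive (ENSMUSG00000054387, chromosome 1, 132887222 to 132958299, minus strand). It had 14.5, 14.1 and 14.1 FPKM in Combination, 14.3, 11.4 and 14.8 in Radiation, 12.04, 11.8 and 11.1 in Complex 1, and 11.4, 11.1 and 11.9 in Control tumours. Radiation replicate 2, the library low in T cell markers, stood with the unirradiated libraries, and the other irradiated libraries lay above all of those. Mdm4 rose by 0.24 (0.11 to 0.37) over both levels of Complex 1 (adjusted p = 0.011). Radiation against Control gave 0.21 (adjusted p = 0.125), and 0.32 without Radiation replicate 2 (adjusted p = 0.0079). Of its 31-base sequences 13.8% occur elsewhere, mainly in Mdm4-ps, which had at most 0.02 FPKM.

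Ppm1d encodes the phosphatase WIP1, which removes damage-signal phosphates from p53 and its kinases (ENSMUSG00000020525, chromosome 11, 85202070 to 85237892, plus strand). It had 6.01, 5.69 and 5.56 FPKM in Combination, 6.10, 6.92 and 6.07 in Radiation, 6.83, 5.92 and 6.37 in Complex 1, and 6.90, 7.07 and 6.73 in Control tumours. The Combination libraries lay below every Control and every Radiation library. Ppm1d fell by 0.31 in Combination against Control (interval -0.50 to -0.12, adjusted p = 0.025). It is a p53 target by common description, and it was the only 1 of the 10 that passed with a lower value in any of the 8 comparisons. This call ended without Control replicate 1 (adjusted p = 0.061), Control replicate 2 (0.081), Combination replicate 2 (0.077) or Combination replicate 3 (0.086), with library totals as the scaling (0.052), and with no filter on low values (0.063). Over both levels of Complex 1 the change of -0.16 passed without Radiation replicate 2 (-0.19, adjusted p = 0.049).

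Ccng1 encodes cyclin G1, a p53 target that recruits a phosphatase to MDM2 (ENSMUSG00000020326, chromosome 11, 40639379 to 40646138, minus strand). It had 74.3, 77.4 and 73.7 FPKM in Combination, 71.7, 78.9 and 67.9 in Radiation, 28.8, 33.7 and 34.6 in Complex 1, and 27.4, 30.2 and 30.0 in Control tumours. The lowest irradiated library had 67.9 FPKM and the highest unirradiated one 34.6. Ccng1 rose 2.44-fold (2.17 to 2.75) in Radiation against Control, with an adjusted p of 3.5e-06, and 2.29-fold (2.03 to 2.58) in Combination against Complex 1, with 8.7e-06. Its pair of half-sites is printed above.

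Cdkn1a encodes p21, which inhibits cyclin-dependent kinases and so stops cells before S phase (ENSMUSG00000023067, chromosome 17, 29309950 to 29319701, plus strand). It had 85.2, 82.0 and 79.4 FPKM in Combination, 56.3, 71.7 and 63.9 in Radiation, 36.1, 44.7 and 38.5 in Complex 1, and 47.3, 40.2 and 31.3 in Control tumours. The Combination libraries formed the highest group, the Radiation libraries lay next without overlap, and Complex 1 and Control libraries overlapped. Cdkn1a rose 1.58-fold (1.30 to 1.93) in Radiation against Control (adjusted p = 0.0066) and 2.04-fold (1.68 to 2.49) in Combination against Complex 1 (adjusted p = 0.001). Its locus overlaps 1700023B13Rik on the opposite strand. That gene held 1.43% as many counts as Cdkn1a, and without a stated strand setting their reads cannot be told apart. Of the 31-base sequences of Cdkn1a, 9.78% occur in other loci.

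Trp53inp1 encodes a stress protein that p53 induces and that binds p53 kinases in the nucleus (ENSMUSG00000028211, chromosome 4, 11156431 to 11174379, plus strand). It had 5.39, 4.84 and 5.31 FPKM in Combination, 4.84, 5.69 and 5.17 in Radiation, 1.65, 1.78 and 1.92 in Complex 1, and 1.52, 1.71 and 1.69 in Control tumours. The irradiated groups overlapped each other and lay far above the unirradiated ones. It rose 3.13-fold (2.71 to 3.61) in Radiation against Control, where it had the smallest p of all 13668 genes (adjusted p = 3.5e-06), and 2.86-fold (2.47 to 3.31) in Combination against Complex 1 (adjusted p = 8.7e-06).

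Zmat3 encodes a zinc finger RNA-binding protein that p53 induces (ENSMUSG00000027663, chromosome 3, 32388941 to 32420163, minus strand). It had 9.10, 8.65 and 8.5 FPKM in Combination, 7.57, 8.19 and 8.66 in Radiation, 3.87, 5.33 and 4.61 in Complex 1, and 5.21, 4.31 and 4.80 in Control tumours. Irradiated and unirradiated libraries did not overlap. It rose by 0.74 (0.52 to 0.96) in Radiation against Control, with an adjusted p of 0.0012, and by 0.91 (0.69 to 1.13) in Combination against Complex 1, with 0.00053.

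Btg2 encodes an antiproliferative protein that recruits the deadenylase complex to mRNA (ENSMUSG00000020423, chromosome 1, 134002908 to 134006858, minus strand). It had 10.5, 7.82 and 7.77 FPKM in Combination, 4.66, 5.33 and 5.91 in Radiation, 4.95, 5.35 and 5.08 in Complex 1, and 5.17, 4.10 and 2.74 in Control tumours. The Combination libraries stood above all others, and the other 3 groups overlapped. Btg2 rose by 1.07 (0.65 to 1.49) in Combination against Control (adjusted p = 0.0019) and by 0.74 (0.33 to 1.16) in Combination against Complex 1 (adjusted p = 0.027), while Radiation against Control gave 0.37 (-0.05 to 0.79, adjusted p = 0.227). That value was 0.60 without Control replicate 1 and 0.16 without Control replicate 3. The call against Complex 1 ended without Combination replicate 1 (0.59, adjusted p = 0.115), Complex 1 replicate 1 (0.72, adjusted p = 0.089) or Complex 1 replicate 2 (0.77, adjusted p = 0.077).

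Plk2 encodes a polo-like kinase of the centriole and the stress response that p53 can induce (ENSMUSG00000021701, chromosome 13, 110531580 to 110537378, plus strand). It had 38.8, 33.4 and 30.5 FPKM in Combination, 24.5, 23.8 and 29.5 in Radiation, 31.04, 29.5 and 25 in Complex 1, and 39.8, 34.7 and 25.5 in Control tumours. Combination libraries lay above Radiation libraries, and all other pairs of groups overlapped. Plk2 passed in 0 of the 8 comparisons by edgeR. Radiation against Control gave -0.39 (-0.71 to -0.07, adjusted p = 0.102). It was -0.55 without Control replicate 3 (adjusted p = 0.018) and -0.24 without Control replicate 1 (adjusted p = 0.363). With no filter on low values it was -0.41 (adjusted p = 5.5e-05), with a standard error of 0.086 against 0.149 in the main fit.

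Control libraries differed most from each other in Btg2, Plk2 and Cdkn1a, with coefficients of variation of 30.4%, 21.7% and 20.3%, against 2.46% to 9.44% for the other 7 genes. In all 3 genes Control replicate 1 was the highest and Control replicate 3 the lowest. Egr1, an immediate early gene named here after its values were seen, had 150, 82.5 and 59.1 FPKM in Control replicates 1 to 3. Fos (6.26, 5.54 and 3.99), Junb, Ier2, Ier3 and Nr4a1 had the same order. Dusp1 (11.4, 13.5 and 11.8), Fosb, Atf3 and Zfp36, also of this kind, did not. The part of such genes in the spread of Btg2, Plk2 and Cdkn1a was not tested.

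Radiation against Control asks what radiation did without the compound. Mdm2, Ccng1, Cdkn1a, Trp53inp1 and Zmat3 rose, so that 5 of 10 were higher and 0 lower, against 7.39% of all tested genes higher. In these 5 the 3 Radiation libraries lay above the 3 Control libraries, and 29.9% of all tested genes had groups that did not overlap. Mdm4, Btg2, Trp53, Ppm1d and Plk2 did not pass, with changes between -0.39 and 0.37. The median of the 10 was 0.43, against -0.006 over all tested genes.

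Complex 1 against Control asks what the compound did without radiation. Of the 10 genes, 0 passed by edgeR, 0 had an unadjusted p under 0.05 and 0 passed by DESeq2, against 0.812% of all tested genes called by edgeR. In 0 of the 10 did the groups stand apart, against 16.1% of all tested genes. Changes ran from -0.25 in Plk2 (-0.57 to 0.07) to 0.33 in Btg2 (-0.10 to 0.75). Without Control replicate 1 these were -0.11 and 0.55, and without Control replicate 3 they were -0.42 and 0.11. The intervals were narrowest in Mdm2 (-0.21 to 0.06) and Trp53 (-0.05 to 0.24). For Ccng1 the interval was -0.05 to 0.29, and that of its change in Radiation against Control was 1.12 to 1.46. Both share the Control libraries and were not set against each other.

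Combination against Control gave 7 genes higher and 1 lower, Ppm1d, against 11.9% and 10% of all tested genes. In these 8 genes the groups did not overlap, as in 38% of all tested genes. Trp53inp1 rose 3.05-fold (2.64 to 3.53), Ccng1 2.49-fold (2.21 to 2.80), Btg2 2.10-fold (1.57 to 2.80) and Cdkn1a 2.01-fold (1.65 to 2.45). Mdm4 rose by 0.26 (0.08 to 0.45, adjusted p = 0.04). That call ended without any 1 of the Combination libraries (adjusted p = 0.107, 0.081 and 0.074 without replicates 1 to 3), without any 1 of the Control libraries (0.096, 0.119 and 0.058) and without Complex 1 replicate 2 (0.054).

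Combination against Complex 1 gave 6 genes higher and 0 lower, against 4.73% of all tested genes higher. They were Mdm2, Ccng1, Cdkn1a, Trp53inp1, Btg2 and Zmat3. The groups stood apart in 8 genes, these 6 with Mdm4 and Trp53, against 30.5% of all tested genes. Mdm4 had 0.27 (0.09 to 0.45, adjusted p = 0.061) and passed with library totals (adjusted p = 0.045), DESeq2 (0.022), no filter on low values (0.03), only the compared groups in the fit (0.031) and without Radiation replicate 2 (0.01), at 0.26 to 0.29. The comparisons of Combination and of Radiation with Control share the Control libraries, so their values are given side by side and were not set against each other.

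Combination against Radiation asks what the compound added to radiation. By edgeR 0 of the 10 genes passed, against 0.651% of all tested genes, 3 had an unadjusted p under 0.05, and by DESeq2 1 passed, Btg2 (0.70, adjusted p = 0.028). The groups stood apart in 4 genes, against 16.8% of all tested genes. Btg2 was higher at 0.70 (0.29 to 1.10, adjusted p = 0.176), Plk2 at 0.38 (0.06 to 0.70, adjusted p = 0.402) and Cdkn1a at 0.34 (0.06 to 0.62, adjusted p = 0.384), and Ppm1d was at -0.17 (-0.36 to 0.03, adjusted p = 0.554). Without a filter on low values Btg2, Cdkn1a and Plk2 passed (adjusted p = 8.1e-05, 0.0065 and 0.0016). Standard errors of that fit are given in the closing section. For Mdm2 the interval of the difference was -0.11 to 0.16, for Ccng1 -0.14 to 0.19 and for Trp53inp1 -0.23 to 0.16. Neutrophil markers moved with this comparison. They summed to 245 to 408 FPKM in Combination and 8.90 to 33.6 in Radiation tumours, with 5 of the 5 tested markers higher and Ly6g at 0 in Radiation libraries. Their part in these differences was not tested.

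Averaged over tumours with and without radiation, the effect of Complex 1 passed in 0 of the 10 genes by edgeR, against 2.77% of all tested genes, with 2 at an unadjusted p under 0.05 (Btg2 and Ppm1d) and 1 by DESeq2. That gene was Btg2, with 0.51 (0.22 to 0.80) and an adjusted p of 0.068 by edgeR and 0.01 by DESeq2. It also passed without Control replicate 1 (0.62, adjusted p = 0.024) and without a filter on low values (3.6e-05). Neutrophil markers moved here too, with 5 of 5 higher, and summed to 87.4 to 196 FPKM in Complex 1 and 10.3 to 18.2 FPKM in Control tumours.

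The interaction asks whether the radiation effect differed with and without Complex 1. It passed in 0 of the 10 genes and in 0 of all tested genes (0%) by edgeR. At an unadjusted p under 0.05 it had 1 of the 10 and 601 of all tested genes, and by DESeq2 0 and 6. The 1 gene was Plk2, with 0.63 (0.18 to 1.09, adjusted p = 0.997), whose radiation effect was 0.24 with Complex 1 and -0.39 without it. Without a filter on low values it passed (0.65, adjusted p = 7.6e-05). Cdkn1a (-0.03 to 0.76) and Btg2 (-0.22 to 0.96) had the next largest values, 0.37 each. Without Control replicate 1 Cdkn1a had 0.22 and Btg2 0.15, and Btg2 had 0.58 without Control replicate 3 and 0.21 without Combination replicate 1.

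**Figure D2:**
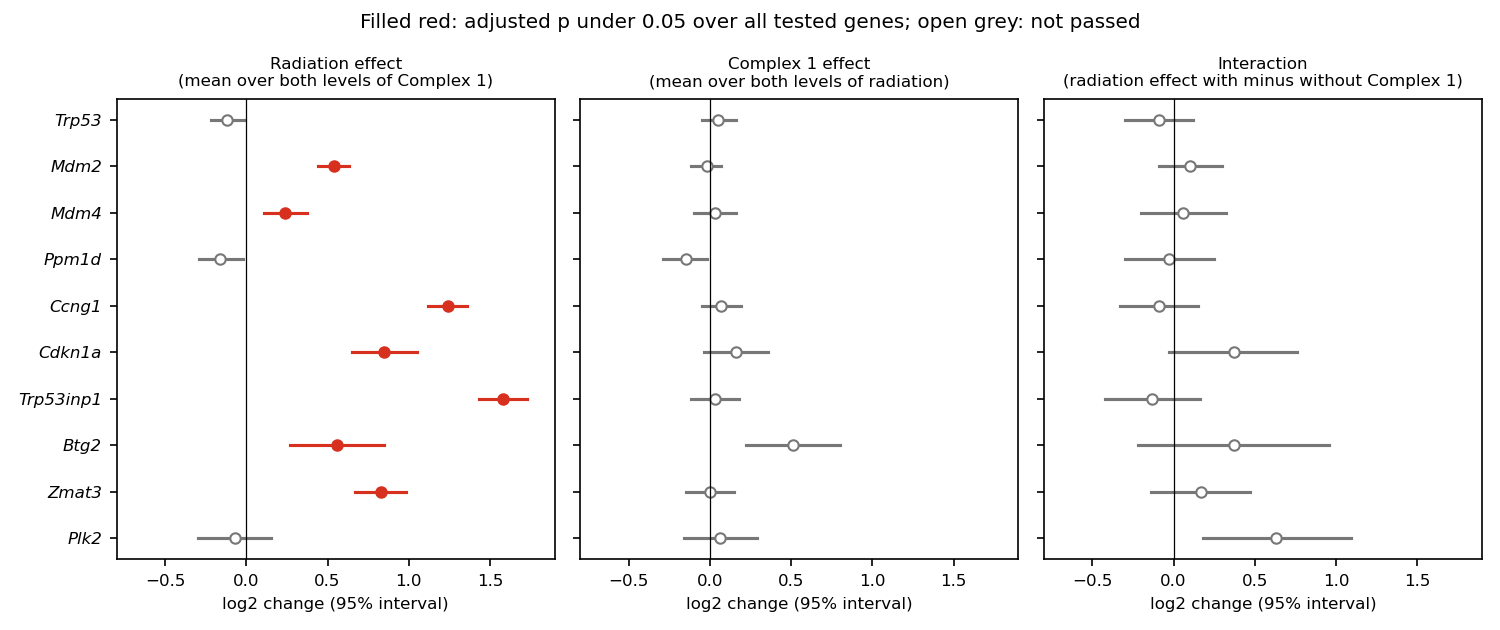
Log2 change (x axis) of each of the 10 genes for the radiation effect, the Complex 1 effect and their interaction, with 95% intervals; filled points passed at an adjusted p under 0.05. In the first panel 7 genes are filled, up to 1.58 in Trp53inp1, and in the other panels 0 are, with Btg2 (0.51) and Plk2 (0.63) farthest from 0.

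Per exon length, the order of levels differed with radiation. In Control tumours Cdkn1a (39.6 ± 8.02 FPKM), Trp53 (35.1 ± 2.96), Plk2 (33.3 ± 7.24), Mdm2 (29.5 ± 1.21) and Ccng1 (29.2 ± 1.55) led, and each overlapped the next in this order. Mdm4 (11.5 ± 0.398), Ppm1d (6.90 ± 0.170), Zmat3 (4.77 ± 0.451), Btg2 (4 ± 1.22) and Trp53inp1 (1.64 ± 0.104) followed (SD, n = 3 each), of which only Zmat3 and Btg2 overlapped. In Radiation tumours Ccng1 (72.8 ± 5.61 FPKM) and Cdkn1a (63.9 ± 7.72) led, with overlapping libraries, before Mdm2 (42.1 ± 0.994), Trp53 (34.1 ± 2.36) and Plk2 (25.9 ± 3.09). In Combination tumours Cdkn1a (82.2 ± 2.89) stood above Ccng1 (75.1 ± 1.97) in all 3 libraries.

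Within a library, the ratio of FPKM between an inhibitor and p53 is free of that library's scaling. Mdm2 to Trp53 was 1.37, 1.17 and 1.23 in Combination, 1.30, 1.15 and 1.26 in Radiation, 0.75, 0.71 and 0.78 in Complex 1, and 0.87, 0.93 and 0.74 in Control tumours. Mdm2 was thus above Trp53 in every irradiated library and below it in every other library. Cdkn1a to Trp53 was 2.22 to 2.55 in Combination, 1.70 to 1.97 in Radiation, 0.94 to 1.15 in Complex 1 and 0.82 to 1.35 in Control tumours. Mdm2 to Mdm4 was 2.91 to 3.14 in Combination, 2.77 to 3.71 in Radiation, 2.32 to 2.65 in Complex 1 and 2.37 to 2.69 in Control tumours, so the gap between irradiated and unirradiated libraries was small. These ratios are descriptions of genes already tested.

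**Figure D3:**
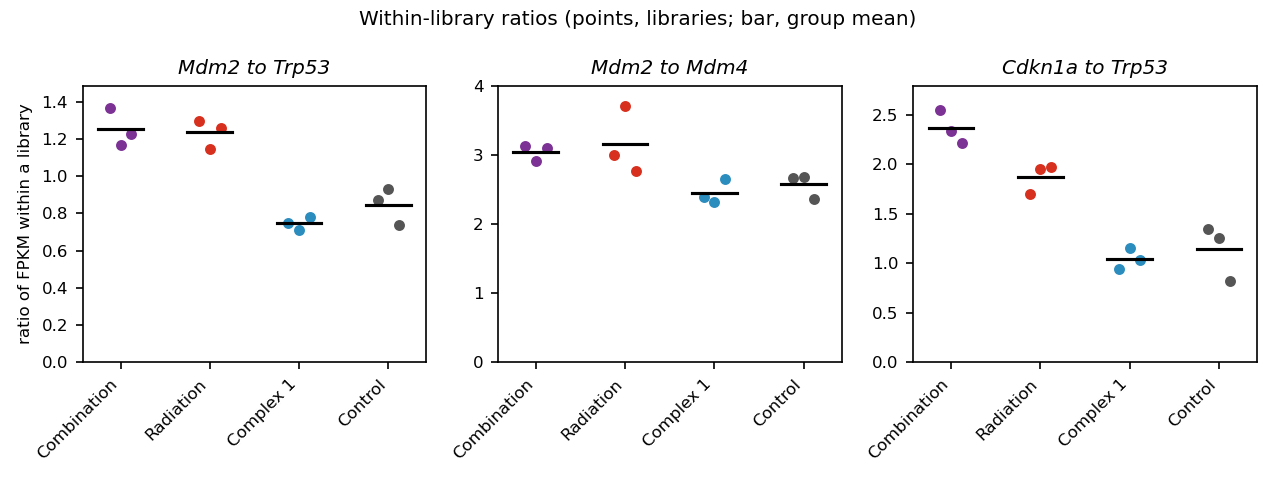
Ratio of FPKM within each library (y axis, from 0) for Mdm2 to Trp53, Mdm2 to Mdm4 and Cdkn1a to Trp53 in the 4 groups; points are libraries and bars group means. For Mdm2 to Trp53 the irradiated libraries lie at 1.15 to 1.37 and the others at 0.71 to 0.93.

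Genes whose profiles over the 12 libraries were most like those of the 3 genes with the largest radiation effect were ranked by the root mean square difference of centred log2 counts per mega count. For Trp53inp1 they were Ccng1 (0.181), Inka2 (0.190) and Siglec1 (0.234), against a spread of Trp53inp1 itself of 0.794. For Ccng1 they were Ephx1 (0.169), Trp53inp1 (0.181) and Adgre1 (0.194), against 0.628. For Cdkn1a they were Cd80 (0.164), Zmat3 (0.167) and Trp53inp2 (0.207), against 0.472. Adgre1 and Siglec1 are macrophage marker genes. Among the 10 genes, the pair Trp53 and Ppm1d was the closest (0.140), and Ppm1d and Trp53inp1 were the farthest apart (0.878).

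Other p53 targets rose with radiation in part. In the radiation effect over both levels of Complex 1, 15 of 26 tested genes of a list of 28 rose and 0 fell. Over all tested genes 13.3% rose and 13.2% fell. The rises were 0.15 to 1.03, and the median of the 26 was 0.18. Ephx1, an epoxide hydrolase gene, rose by 0.96 ± 0.06 (SE), with 118 ± 7.30 FPKM in Combination, 126 ± 12.1 in Radiation, 63.1 ± 3.81 in Complex 1 and 60.6 ± 5.87 in Control tumours. Eda2r, a death receptor gene, rose by 0.99 ± 0.08 and Phlda3, an inhibitor of AKT signalling, by 0.69 ± 0.06. The count of rises was 12 to 15 under the alternatives. A count of 1 lower was found without Control replicate 3, without Complex 1 replicate 3, with the replicate block and without a filter. In Radiation against Control 9 of the 26 rose, against 7.39% of all tested genes, and 0 fell. That 9 was 7 without Control replicate 2 or Radiation replicate 1, and 11 with library totals. Perp and Rprm lay below the filter.

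Genes that act on p53 from upstream or beside it mostly did not pass. Of 21 tested, 0 rose and 4 fell, Chek2 (-0.52 ± 0.09), Chek1 (-0.38 ± 0.09), Rpl5 (-0.30 ± 0.06) and Rpl11 (-0.30 ± 0.08), and the median was -0.07. Of all tested genes 13.2% fell, so 4 of 21 is near the background. Chek1 and Chek2 encode checkpoint kinases that signal DNA damage, and Rpl5 and Rpl11 ribosomal proteins that can bind MDM2. Rpl11 is named outside the naming rule, after its value was seen. The count of rises was 1 without Complex 1 replicate 3 or Combination replicate 1, with median-ratio scaling, library totals, DESeq2, the replicate block or no filter, and 2 without Radiation replicate 2. Cdkn2a, whose ARF product inhibits MDM2, lay below the filter at 0.00 to 0.49 FPKM.

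Cell cycle genes described as lowered by p21 through the DREAM repressor complex fell throughout their list in the radiation effect over both levels of Complex 1. Of 30 tested, 30 fell and 0 rose, against 13.2% and 13.3% of all tested genes. The changes were -0.52 to -0.19, with a median of -0.35, and 28 to 30 fell under the alternatives. Rrm2, a subunit of ribonucleotide reductase, had -0.49 ± 0.06, with 44.9 ± 3.77 FPKM in Combination, 44.6 ± 3.14 in Radiation, 63.8 ± 4.09 in Complex 1 and 59.4 ± 3.65 in Control tumours. Pcna, the sliding clamp of replication, had -0.39 ± 0.05 and Bub1b, a spindle checkpoint kinase, -0.51 ± 0.06. These changes were smaller in size than those of Cdkn1a, Ccng1 and Trp53inp1. In Radiation against Control 17 of the 30 fell and 0 rose, against 800 lower and 1010 higher of all 13668 tested genes. That 17 became 5 without Radiation replicate 1, 7 without Radiation replicate 3, 8 without Control replicate 2 and 19 with DESeq2. The part of p21 and DREAM in these falls was not tested.

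Paralogs of the 10 genes showed no common direction. Of 15 tested among 19, 2 rose, Trp53inp2 (0.72 ± 0.12) and Zmat1 (0.34 ± 0.11), and 3 fell, Plk4 (-0.42 ± 0.05), Plk1 (-0.27 ± 0.07) and Ppm1a (-0.13 ± 0.05), with a median of 0.00. Of all tested genes 13.3% rose and 13.2% fell, so these counts are near the background. Zmat1 and Ppm1a are named after their values were seen, and Plk1 and Plk4 also stand in the DREAM list. The count of rises was 1 without Control replicate 1 or 3, Complex 1 replicate 2, Radiation replicate 1 or 3, or Combination replicate 3. Trp63 and Trp73, the p53 relatives, had at most 0.24 and 0.06 FPKM and lay below the filter, as did Cdkn1c and Btg3. Of all 4 lists, 0 genes passed by edgeR in the Complex 1 effect, where 5 other targets, 2 upstream genes, 5 DREAM genes and 3 paralogs had an unadjusted p under 0.05, as did 2421 of all 13668 tested genes, and 0 passed by DESeq2.

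**Figure D4:**
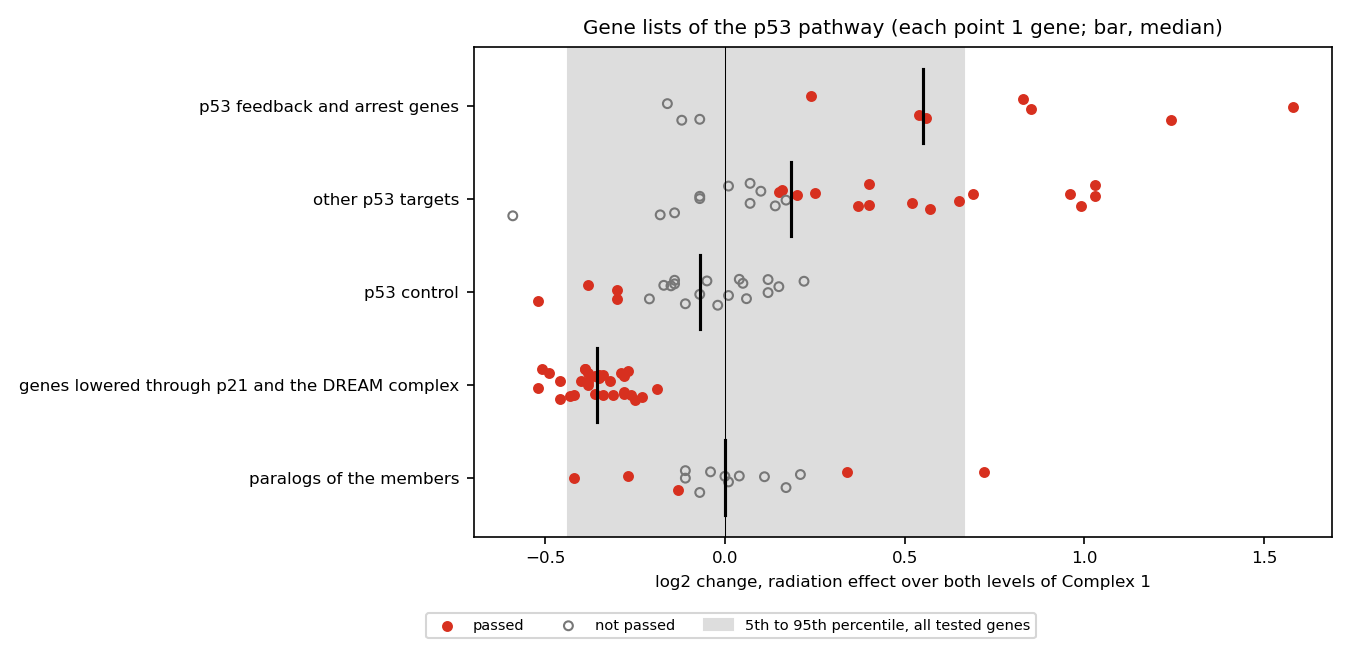
Log2 change of the radiation effect over both levels of Complex 1 (x axis) for each tested gene of the 10 and of the 4 pathway lists; filled points passed, vertical bars are medians and the grey band spans the 5th to 95th percentile of all tested genes (-0.44 to 0.67). The medians stand at 0.55 for the 10 genes, 0.18 for other targets, -0.07 for upstream genes, -0.35 for DREAM genes and 0.00 for paralogs.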

How the data were processed

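RNA of 12 CT26 tumour libraries in 4 groups of 3 was sequenced. The submitters' processing notes name build mm39, DESeq2, HTSeq 2.0.1 and STAR 2.5.3a, without roles; the strand setting is not given in the sources used here. The deposited table holds raw counts per gene, and FPKM that the authors computed from these counts, exon length and library total. Recomputed FPKM differed from the deposited values by at most 0.005. Entries without a symbol held 0.0579% to 0.0706% of a library's counts.

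Genes with at least 1 FPKM in at least 3 of 12 libraries were tested on counts with edgeR 4.0.16 (R 4.3.3, limma 3.58.1): TMM scaling, quasi-likelihood test, a mean per group, 8 comparisons and Benjamini-Hochberg adjustment. The code was tested on simulated data. All 10 genes are reported; of each list, the 3 with the smallest p in the radiation effect are named. Members and lists were chosen with earlier results of these data known. Alternatives were median-ratio scaling, library totals, DESeq2 1.42.0, robust estimation, no filter, fits without the uncompared groups, fits without each library and the replicate number as a block. Shared 31-base sequences were computed from GENCODE M21 transcripts (GRCm38).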

Additional observations from a re-analysis of the deposited data

How the results depend on the processing

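The number of the 10 genes that passed was 5 to 6 without 1 library in Radiation against Control, 6 to 8 in Combination against Control, 5 to 7 in Combination against Complex 1 and 7 to 9 in the radiation effect. Under the other alternatives it was 5 to 6 (6 with no filter, where Plk2 passed as lower), 7 to 8, 6 to 7 and 7 in the same comparisons. It was 0 throughout in Complex 1 against Control, under every alternative run. In Combination against Radiation it was 0 without any 1 library, 1 with DESeq2 and 3 with no filter on low values. In the Complex 1 effect it was 0 to 1 without 1 library, 1 with DESeq2 and 1 with no filter. In the interaction it was 0 without any 1 library and 1 with no filter. The cause of these shifts was not tested. Replicate numbers did not pair the libraries: deviations of same-numbered libraries correlated at -0.168 to 0.127 over 18 pairs, and 0 libraries correlated best with their own number. With the replicate block the counts were 5, 0, 8, 0 and 6 in the pairwise comparisons (Radiation, Complex 1 and Combination against Control, then Combination against Radiation and Complex 1), and 7, 0 and 0 in the radiation effect, Complex 1 effect and interaction. Changes of sign concerned 37 values of genes that had not passed. With library totals, Mdm4 (0.023) and Cdkn1a (0.007) in Complex 1 against Control and Plk2 (0.040) in Combination against Control turned positive. In the Complex 1 effect, Zmat3 had -0.001 with median-ratio scaling, -0.001 with DESeq2 and -0.011 with no filter. Without 1 library, changes in Complex 1 against Control spanned -0.034 to 0.024 (Mdm4), -0.170 to 0.125 (Cdkn1a) and -0.190 to 0.026 (Zmat3), and Plk2 spanned -0.172 to 0.137 in Combination against Control. In Combination against Radiation they spanned -0.029 to 0.062 (Trp53), -0.013 to 0.069 (Mdm2), -0.052 to 0.127 (Mdm4), -0.023 to 0.084 (Ccng1) and -0.093 to 0.027 (Trp53inp1). In the Complex 1 effect they spanned -0.029 to 0.061 (Mdm4), -0.003 to 0.060 (Trp53inp1), -0.052 to 0.055 (Zmat3) and -0.018 to 0.137 (Plk2). Plk2 spanned -0.154 to 0.001 in the radiation effect, and the interaction spanned -0.046 to 0.133 (Mdm4) and -0.083 to 0.037 (Ppm1d). With 3 libraries a group, the pairwise calls of Mdm4 and Ppm1d changed with single libraries or settings, while the rise of Mdm4 in the radiation effect passed in 18 of 18 alternatives (0.204 to 0.293 without 1 library). Counts per library were as low as 133 for Btg2 and 293 for Ppm1d, whose values carry the most counting error with those of Trp53inp1 (180).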
